A study of Mus musculus with 6 samples.

Results

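The genes described here encode the kinetochore, the protein assembly that ties each chromosome to the spindle, and the checkpoint that holds a cell in mitosis until every chromosome is attached. Their levels were measured in pre-B cells from 9 month old mice that lacked Mef2c, a MADS box transcription factor, and from control mice of the same age. The list names 48 symbols, which are 47 genes because Sgol1 is an older symbol of Sgo1. A gene was measured where a probe set of the array carried its symbol alone in the platform annotation. Sgol2a was found under its current symbol, Sgo2a, and Hjurp, which shares its probe set with other symbols, was not analysed here. That left 46 genes with 1 probe set each, and all 46 passed the filter on low values that kept 11271 genes in all. They were grouped by role into 14 genes of the inner centromere, 14 of the outer kinetochore, 7 of the checkpoint, 6 mitotic kinases and their chromosomal passengers, and 5 genes of cohesion and anaphase onset.

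Mef2c-deficient cells came from Vav-Cre Mef2c fl/fl mice, in which Vav-Cre, a recombinase active across blood-forming cells, removed the floxed gene from stem cells onwards, so that the deletion was not limited to B cells. Controls were age-matched and, per the study's methods, of 3 kinds: some had both alleles floxed without Cre, some had 1 floxed allele without Cre, and some had 1 floxed allele with Vav-Cre. Which kind gave each array is not stated in the labels. Both groups were B220+ IgM- CD43- bone marrow cells that had been sorted fresh, with dead cells left out by 7-AAD. There were 3 arrays per group. The study's methods call the samples independent but do not tie arrays to animals, and nor do the labels, so p-values measure the spread between these samples, which may be technical. Mef2c itself was not analysed here.

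Kinetochores are built in layers. The histone variant CENP-A marks the centromere and, with a network of CENP proteins bound to it, carries the MIS12 and NDC80 complexes that grip microtubules, while MPS1, BUB and MAD proteins on unattached kinetochores restrain CDC20 and so keep the anaphase-promoting complex inactive. Most of these genes are transcribed in the later part of the cell cycle, and in bone marrow large cycling pre-B cells precede small resting pre-B cells. The share of each within the gate used here was not measured.

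Promoters were read because genes of this kind are known for 2 short DNA words close to their start sites, the CHR (cell cycle genes homology region), which is bound by the MuvB complex, and the CCAAT box, which is bound by NF-Y. Printed below are the 150 bases before the start site of Bub1 and Cenpf, which had the most negative differences among the genes with a promoter, of Ska3, Espl1 and Cdc20, which hold a CHR word there, and of Cenpb, the only gene of the 46 with a higher mean in Mef2c-deficient cells. Sequences are from RefSeq on GRCm38.p6, run 5′ to 3′ along the gene, and capitals mark the CHR word TTTGAA or its reverse TTCAAA and the CCAAT word or its reverse ATTGG.
Bub1, chr2:127831860-127832009, minus strand: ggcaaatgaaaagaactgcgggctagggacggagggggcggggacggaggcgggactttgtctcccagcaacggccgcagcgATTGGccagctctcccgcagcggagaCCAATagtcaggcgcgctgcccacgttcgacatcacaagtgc
Cenpf, chr1:189688087-189688236, minus strand: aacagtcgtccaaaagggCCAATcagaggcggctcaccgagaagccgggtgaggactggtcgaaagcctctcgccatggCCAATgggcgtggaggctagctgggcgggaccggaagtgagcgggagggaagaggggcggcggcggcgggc
Ska3, chr14:57826164-57826313, minus strand: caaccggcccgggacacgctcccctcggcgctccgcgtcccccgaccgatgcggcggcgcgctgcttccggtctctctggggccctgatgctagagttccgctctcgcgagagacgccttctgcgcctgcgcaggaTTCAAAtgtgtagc
Espl1, chr15:102296143-102296292, plus strand: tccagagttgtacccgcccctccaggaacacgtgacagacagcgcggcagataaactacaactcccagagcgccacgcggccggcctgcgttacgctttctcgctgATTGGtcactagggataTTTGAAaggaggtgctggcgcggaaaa
Cdc20, chr4:118437344-118437493, minus strand: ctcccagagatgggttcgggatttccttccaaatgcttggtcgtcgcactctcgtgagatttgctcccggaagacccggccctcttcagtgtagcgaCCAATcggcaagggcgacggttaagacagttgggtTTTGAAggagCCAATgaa
Cenpb, chr2:131180068-131180217, minus strand: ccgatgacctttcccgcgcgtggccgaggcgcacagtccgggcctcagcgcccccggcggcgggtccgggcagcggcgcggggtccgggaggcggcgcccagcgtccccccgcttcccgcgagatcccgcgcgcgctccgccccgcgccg

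Promoter windows of 250 bases before to 50 after the start were found for 40 of the 46 genes, 45 windows in all, and both strands were searched with overlaps allowed. CCAAT stood in 32 of the 45 windows (71.1%), against 37.4% of all 32851 promoter windows and 37.6% of the 11494 windows of genes tested. TTTGAA stood in 17 windows (37.8%), against 17.9% of all windows and 12.4% of those of genes tested. Both words stood together in 15 windows (33.3%), against 6.95% of all windows. The E2F words TTTGGCGC or TTTCCCGC stood in 4 windows, or 8.89%, against 1.56% of all windows and 2.87% of those of genes tested. The MEF2 consensus stood in 0 of the 45, against 3.19% of all windows and 1.64% of those of genes tested. The median log2 difference of genes with a CCAAT word was -1.96, and that of genes without it was -1.59. For TTTGAA the medians were -1.998 with the word and -1.76 without it. The E2F words went the other way, with medians of -1.12 for the 4 genes with a word and -1.98 for those without. These matches describe letters only, and the differences between these medians were not tested.

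Levels are log2 of the deposited values, and every difference is Mef2c-deficient minus control on that scale. The deposited values are on a linear scale, and no source read here states the base of the exponent that put them there. Taken as log2 the brightest value reaches 21.03, above what an array scanner can record, and taken as a natural log it reaches 14.58, within that range, so the values point to base e. With base e each log2 difference below overstates the change of signal and shrinks by the factor 0.693, with the same sign and p, and fold changes are given for both bases. All genes tested together had a median difference of -0.36, so each difference can also be read against that shift. The shift depends on the filter on low values. It was 0.07 with no filter (17372 genes) and -0.54 with a filter at the 60th percentile. In sorted samples, fewer cells of a kind and less RNA per cell cannot be told apart.

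In 45 of the 46 kinetochore and checkpoint genes the Mef2c-deficient mean was the lower one, against 62.3% of all genes tested, and the exception was Cenpb. Under 4 other scalings of the arrays the count was 43 or 44 of 46, since Oip5 turned to the other side in each, joined by Cenpq under cyclic loess. The median difference was -1.98, or -1.62 relative to all genes. Relative to all genes it was -2.06 with no filter and -1.44 with the 60th percentile filter. No gene of the 46 passed the adjusted threshold in limma with Benjamini-Hochberg adjustment over all 11271 genes, where 2 genes did, both lower (0.0177%), and the adjusted p of the 46 genes ran between 0.0745 and 0.821. Before adjustment, limma gave p under 0.05 with a lower mean for 40 of 46 and with a higher mean for 0, against a background of 20.9% of all genes called lower. Requiring a 2-fold difference as well, as the study did, left 38, against 14.7%. That count depends on the scale, with 33 left on natural log values (5.83% of all genes) and 28 to 32 under the 4 other scalings (4.43% to 7.83%). In 42 of 46 genes every Mef2c-deficient array lay below every control array, against 27.1% of all genes. With 3 arrays against 3, an exact permutation test of a single gene cannot go below p = 0.10.

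**Figure D1:**
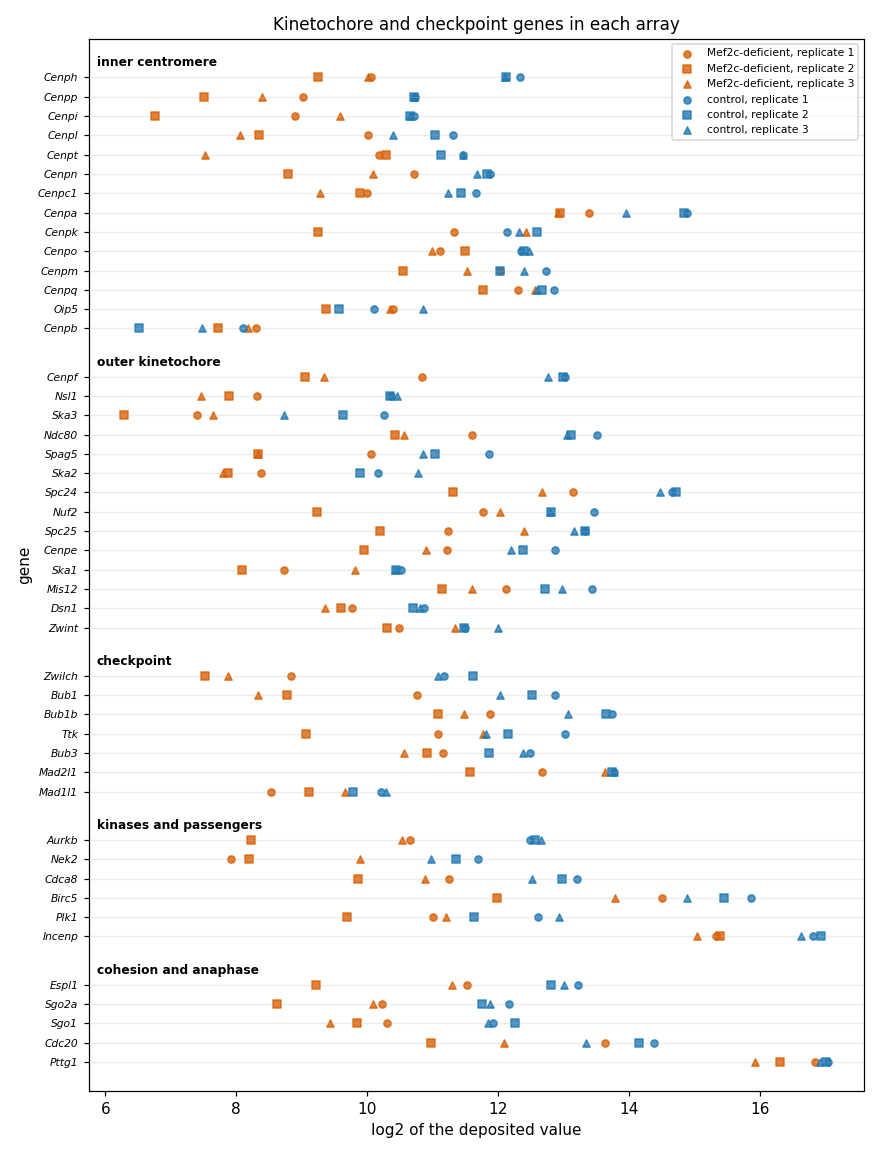
Log2 of the deposited value (x axis) of the 46 kinetochore and checkpoint genes (y axis) in each of 3 Mef2c-deficient arrays (orange) and 3 control arrays (blue), with the replicate number as marker shape and genes grouped by role. In 42 genes all orange markers lie left of all blue ones, and the groups overlap in Cenpb, Oip5, Cenpk and Cdc20.

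The size of the difference set the list apart from the bulk of the array more than the call did. A difference of -1 or lower was found in 40 of 46 genes, against 18.1% of all genes tested. A difference of -2 or lower was found in 22 of 46, against 1.65%. Zwilch, Cenpf and Bub1 lay at -3 or lower, where 0.151% of all genes did. In 20 of 46 genes the highest Mef2c-deficient array lay at least 1 log2 unit below the lowest control array, against 1.97% of all genes tested. Between the control level and the difference the Pearson r was -0.085 over the 46 genes, which share the same 6 arrays.

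**Figure D2:**
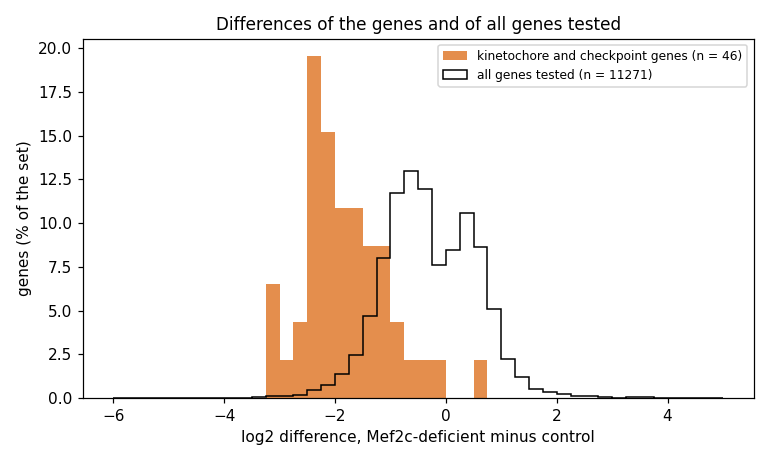
Share of genes (y axis, percent of each set) by log2 difference, Mef2c-deficient minus control (x axis, bins of 0.25), for the 46 kinetochore and checkpoint genes (orange) and for all 11271 genes tested (black outline). The orange bars centre on a median of -1.98, and the outline on -0.36.

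The inner centromere held 3 of the 4 genes whose groups overlapped. Of its 14 genes 13 had a lower mean, 10 had an unadjusted p under 0.05 with a lower mean, and 11 did not overlap. The shares of all genes for these 3 counts were 62.3%, 20.9% and 27.1%. The median difference of the 14 was -1.60. Cenph, a subunit of the constitutive network on the CENP-A nucleosome, was at 10.05, 9.25 and 10.00 in Mef2c-deficient arrays, against 12.33, 12.12 and 12.11 in control arrays. Both groups were narrow, and the difference was -2.41 ± 0.32 (SE, n = 3 each; limma adjusted p = 0.0745), a 5.33-fold lower value as deposited and 3.19-fold if the base was e. Cenpp, another subunit of the network, was at 9.02, 7.50 and 8.40 in Mef2c-deficient arrays, against 10.73, 10.71 and 10.71 in control arrays. The control arrays lay almost on a single value while the Mef2c-deficient arrays spread over more than 1 unit, and the difference was -2.41 ± 0.41. Cenpi, which helps to recruit new CENP-A, was at 8.90, 6.76 and 9.59 in Mef2c-deficient arrays, against 10.71, 10.65 and 10.65 in control arrays. Mef2c-deficient replicate 2 lay far below the other two, and the difference was -2.26 ± 0.67.

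Over the 11 genes of the constitutive network on the list the differences ran between -2.41 and -0.49, with a median of -1.93. Of these, 9 had an unadjusted p under 0.05, against 20.9% of all genes called lower. Cenpl (-2.10), Cenpt (-2.02), Cenpn (-1.93) and Cenpc1 (-1.72), which reads CENP-A and links it outward, were in the middle of that range. Cenpt was unlike its neighbours in its lowest array, at 10.18, 10.29 and 7.52 in Mef2c-deficient arrays against 11.46, 11.13 and 11.45 in control arrays. Cenpo (-1.21) and Cenpm (-1.02) differed less. Cenpk showed the opposite order of arrays from Cenpt, at 11.32, 9.25 and 12.42 in Mef2c-deficient arrays against 12.14, 12.60 and 12.31 in control arrays. Mef2c-deficient replicate 3 lay among the controls, so the groups overlapped (difference -1.35 ± 0.73, limma adjusted p = 0.255). Cenpq was at 12.30, 11.77 and 12.56 in Mef2c-deficient arrays, against 12.85, 12.66 and 12.59 in control arrays. The groups touched within 0.03, and the difference of -0.49 ± 0.31 became 0.06 under cyclic loess. Other genes of the network were read beside the list. Cenps had a difference of -1.64 without overlap, while Cenpu (-0.41) and Cenpx (-0.10) had overlapping groups.

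The centromeric histone itself and its partners differed from each other. Cenpa, the histone H3 variant that marks centromeres, was at 13.38, 12.93 and 12.92 in Mef2c-deficient arrays, against 14.88, 14.83 and 13.95 in control arrays. The groups stood apart, with a difference of -1.48 ± 0.35. Oip5, a Mis18 subunit needed to deposit CENP-A, was at 10.40, 9.37 and 10.35 in Mef2c-deficient arrays, against 10.10, 9.57 and 10.86 in control arrays. The arrays were mixed and the difference was -0.14 ± 0.44 (limma adjusted p = 0.821), with a positive sign under 4 other scalings. Cenpb, which binds a sequence in centromeric satellite repeats, was at 8.31, 7.72 and 8.18 in Mef2c-deficient arrays, against 8.11, 6.51 and 7.48 in control arrays. The groups overlapped (difference 0.70 ± 0.44, limma adjusted p = 0.301), its level was near the filter limit of 7.26, and its probe set carries the suffix of sets that may match several transcripts.

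The outer kinetochore group of the list held no exception on the deposited scaling. All 14 of its genes had lower means, an unadjusted p under 0.05 and groups that did not overlap, and the median was -2.13. The shares of all genes were 20.9% by that p with a lower mean and 27.1% without overlap. With cyclic loess the unadjusted p in limma was 0.236 for Zwint, 0.0924 for Nuf2 and 0.0537 for Mis12. Cenpf, a large coiled coil protein of the outer kinetochore and nuclear envelope that builds up in G2, was at 10.83, 9.05 and 9.34 in Mef2c-deficient arrays, against 13.02, 12.99 and 12.76 in control arrays. Every Mef2c-deficient array lay almost 2 units or more below every control array, and the difference was -3.18 ± 0.48 (SE, n = 3 each; limma adjusted p = 0.0745), 9.06-fold as deposited and 4.61-fold if the base was e. Nsl1, a MIS12 complex subunit, was at 8.31, 7.89 and 7.46 in Mef2c-deficient arrays, against 10.36, 10.34 and 10.45 in control arrays. Its difference of -2.50 ± 0.31 had the smallest unadjusted p of the 46 genes (5.94e-05) and rank 4 among all genes tested. Ska3, a subunit of the SKA complex that tracks the ends of shrinking microtubules, was at 7.40, 6.29 and 7.64 in Mef2c-deficient arrays, against 10.26, 9.63 and 8.73 in control arrays. Here the control arrays spread as widely as the Mef2c-deficient ones, and the difference was -2.43 ± 0.51. The Mef2c-deficient mean of Ska3, 7.11, lay under the filter limit of 7.26, and the gene passed through its control mean of 9.54.

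The complexes of the outer kinetochore can be read subunit by subunit. The 4 NDC80 complex genes, whose products form the rod that binds microtubules, were at -2.36 (Ndc80), -2.24 (Spc24), -2.01 (Nuf2) and -1.99 (Spc25). Without Mef2c-deficient replicate 2 they spread to -2.15, -1.71, -1.12 and -1.46. The 3 MIS12 complex genes on the list, whose products join the centromere network to NDC80, ran between -2.50 (Nsl1) and -1.22 (Dsn1), with Mis12 at -1.42. Pmf1, a subunit of that complex read beside the list, had a difference of -0.33 ± 0.34 and overlapping groups. The 3 SKA genes were at -2.43 (Ska3), -2.26 (Ska2) and -1.58 (Ska1). Spag5, which encodes the spindle protein astrin, had a difference of -2.34, and Cenpe, a kinesin that moves chromosomes to the spindle equator, one of -1.79. Zwint, which brings the RZZ complex to kinetochores, had the smallest difference of this group at -0.95 ± 0.37. Whether subunits of a complex differed from each other was not tested.

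**Figure D3:**
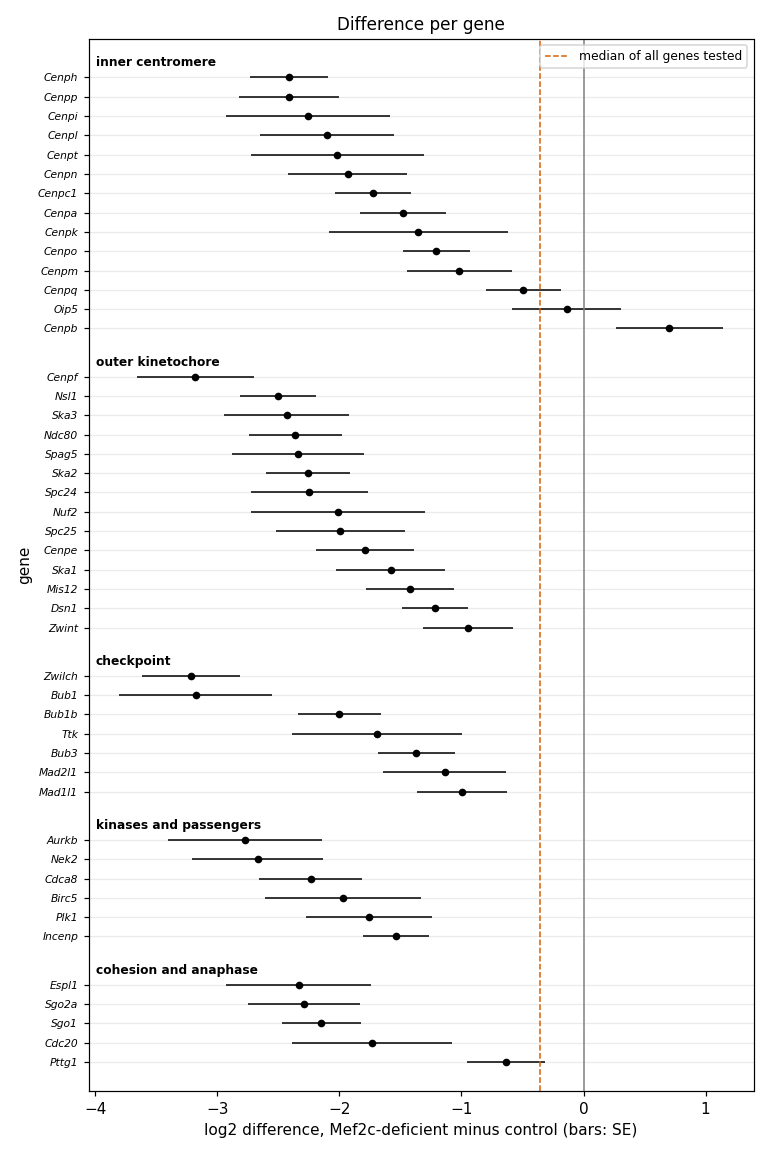
Log2 difference, Mef2c-deficient minus control (x axis), of each of the 46 genes (y axis, grouped by role), with points at the difference and bars of 1 SE from limma (n = 3 arrays each). Zwilch at -3.21 and Cenpf and Bub1 at -3.18 lie furthest left, Cenpb at 0.70 is the only point right of 0, and the dashed line is the median of all genes tested, -0.36.

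Checkpoint genes ran between -3.21 (Zwilch) and -0.995 (Mad1l1). All 7 had lower means and groups that did not overlap, against 27.1% of all genes without overlap. An unadjusted p under 0.05 was found for 6, against 20.9% of all genes called lower, and the median was -1.69. Zwilch, a subunit of the RZZ complex that carries MAD1 and MAD2 to kinetochores, was at 8.83, 7.52 and 7.88 in Mef2c-deficient arrays, against 11.17, 11.62 and 11.08 in control arrays. The gap between the groups was 2.25, the largest of the 46 genes, and the difference was -3.21 ± 0.40 (SE, n = 3 each; limma adjusted p = 0.0745), 9.28-fold as deposited and 4.69-fold if the base was e. Bub1, the kinase that recruits the other checkpoint proteins and marks the centromere for shugoshin, was at 10.76, 8.78 and 8.34 in Mef2c-deficient arrays, against 12.87, 12.52 and 12.03 in control arrays. The groups were more than 1 unit apart in spite of a wide Mef2c-deficient spread, and the difference was -3.18 ± 0.63. Bub1b, which encodes BUBR1 of the mitotic checkpoint complex, was at 11.88, 11.07 and 11.48 in Mef2c-deficient arrays, against 13.74, 13.64 and 13.06 in control arrays. The spread was alike in both groups, and the difference was -2.001 ± 0.34.

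The remaining checkpoint genes differed less. Ttk, the MPS1 kinase that starts checkpoint signalling, was at 11.08, 9.06 and 11.76 in Mef2c-deficient arrays, against 13.02, 12.14 and 11.80 in control arrays. The groups were only just apart, since replicate 3 of each nearly met. Bub3, the partner of BUB1 and BUBR1, had a difference of -1.37 ± 0.31. Mad2l1, which encodes the MAD2 protein that seizes CDC20, was at 12.66, 11.56 and 13.63 in Mef2c-deficient arrays, against 13.76, 13.73 and 13.77 in control arrays. Its control arrays agreed within 0.04, Mef2c-deficient replicate 3 lay just under them, and the difference of -1.14 ± 0.50 had an unadjusted p of 0.0557 in limma. Mad1l1, the anchor of MAD2, had a difference of -0.995 ± 0.37.

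On the deposited scaling all 6 mitotic kinase and passenger genes had lower means, an unadjusted p under 0.05 and groups that did not overlap. Of all genes 20.9% had such a p with a lower mean, and 27.1% did not overlap. The median of the 6 was -2.10. With cyclic loess the unadjusted p of Birc5 in limma was 0.0611. Aurkb, the Aurora kinase that releases wrong attachments, was at 10.65, 8.22 and 10.53 in Mef2c-deficient arrays, against 12.48, 12.57 and 12.66 in control arrays. Mef2c-deficient replicate 2 lay far below the other two, and the difference was -2.77 ± 0.63 (SE, n = 3 each; limma adjusted p = 0.095), 6.82-fold as deposited and 3.78-fold if the base was e. Nek2, a kinase of centrosome separation, was at 7.92, 8.20 and 9.88 in Mef2c-deficient arrays, against 11.68, 11.35 and 10.97 in control arrays. Here Mef2c-deficient replicate 1 was the lowest and replicate 3 stood apart from it, and the difference was -2.67 ± 0.54. Cdca8, which encodes the passenger borealin, was at 11.24, 9.85 and 10.88 in Mef2c-deficient arrays, against 13.20, 12.97 and 12.51 in control arrays. The groups were more than 1 unit apart, and the difference was -2.23 ± 0.42.

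Within the chromosomal passenger complex, which places Aurora B at the inner centromere, the 4 genes ran between -2.77 (Aurkb) and -1.54 (Incenp), with Cdca8 at -2.23 and Birc5, which encodes survivin, at -1.97. Incenp, the scaffold of the complex, had the narrowest Mef2c-deficient spread of the 46 genes, at 15.32, 15.38 and 15.04 in Mef2c-deficient arrays against 16.81, 16.92 and 16.62 in control arrays. Plk1, the Polo kinase of mitotic entry and spindle assembly, had a difference of -1.76 ± 0.51.

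Among the 5 genes of cohesion and anaphase onset all had lower means, and the median was -2.15. An unadjusted p under 0.05 was found for 4, against 20.9% of all genes called lower, and 4 did not overlap, against 27.1%. Espl1, which encodes separase, the protease that opens cohesin rings, was at 11.52, 9.22 and 11.29 in Mef2c-deficient arrays, against 13.22, 12.81 and 13.00 in control arrays. Its groups were more than 1 unit apart, and the difference was -2.33 ± 0.60. Sgo2a, a shugoshin that guards centromeric cohesion, was at 10.22, 8.62 and 10.08 in Mef2c-deficient arrays, against 12.16, 11.75 and 11.87 in control arrays. The difference was -2.29 ± 0.46, and Sgo1, the shugoshin best known from mitosis, lay close to it. Sgo1 was at 10.30, 9.84 and 9.43 in Mef2c-deficient arrays, against 11.92, 12.26 and 11.84 in control arrays, a difference of -2.15 ± 0.32 (SE, n = 3 each; limma adjusted p = 0.0745).

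The target and the inhibitor at this last step were less separated. Cdc20, the activator of the anaphase-promoting complex that the checkpoint restrains, was at 13.62, 10.97 and 12.09 in Mef2c-deficient arrays, against 14.38, 14.15 and 13.35 in control arrays. Mef2c-deficient replicate 1 lay above control replicate 3, so the groups overlapped, with a difference of -1.73 ± 0.66. Pttg1, which encodes securin, the inhibitor of separase, was at 16.84, 16.30 and 15.92 in Mef2c-deficient arrays, against 17.04, 17.00 and 16.92 in control arrays. Its groups did not overlap but lay close, and the difference of -0.63 ± 0.32 had an unadjusted p of 0.0848 in limma.

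Set side by side, the role groups had medians of -1.60 (inner centromere), -2.13 (outer kinetochore), -1.69 (checkpoint), -2.10 (kinases and passengers) and -2.15 (cohesion and anaphase). The inner centromere and checkpoint groups were the 2 nearest to 0 under each of 4 other scalings too, where the inner centromere median lay between -1.31 and -1.14 and the outer kinetochore median between -1.84 and -1.59. The order was not kept throughout, since the checkpoint median was -2.23 and that of cohesion and anaphase -2.10 with array weights, and -2.004 and -1.94 without Mef2c-deficient replicate 3. Centring each array on the genes tested moved the median of all genes to 0.10, the largest shift of the 4, and the median of the 46 genes was then -1.52. At that scaling 32 of 46 genes kept a lower mean with p under 0.05 before adjustment, against 6.48% of all genes, and Cenpb alone had a higher mean at that threshold. Of all genes with an unadjusted p under 0.05, the share that was lower was 79.7% as deposited, 60.5% with quantile normalization, 55.2% with cyclic loess, 43.3% with centring on kept probe sets and 24.3% with centring on the genes tested, which sets that balance largely by its construction. The difference between role groups was not tested.

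**Figure D4:**
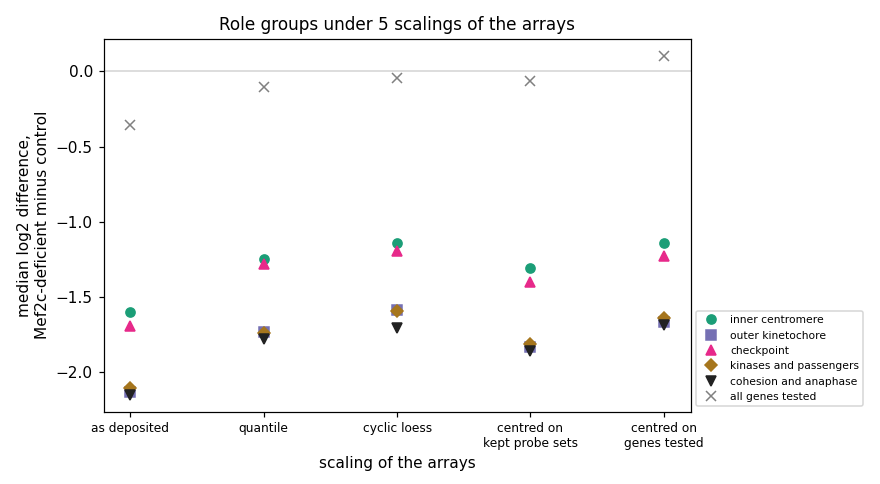
Median log2 difference, Mef2c-deficient minus control (y axis), of the 5 role groups and of all genes tested (grey crosses) for the deposited scaling and 4 others (x axis). All role medians stay below all genes, inner centromere and checkpoint lie above the other role groups at each scaling, and the crosses move between -0.36 and 0.10.

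The 3 Mef2c-deficient arrays did not share the difference equally. The median of the 46 genes lay at -1.42, -2.63 and -1.70 relative to the control mean in Mef2c-deficient replicates 1, 2 and 3, against 0.15, -0.02 and -0.09 in control replicates 1, 2 and 3. Replicate 2 was the lowest Mef2c-deficient array in 31 of 46 genes, while it was the lowest in 26.2% of all genes tested. In the remainder replicate 3 was lowest in 13 genes and replicate 1 in 2. Among controls replicate 1 was the highest in 31 of 46 genes, against 27.5% of all genes, and replicate 1 was also the highest Mef2c-deficient array in 30. The median SD of the 46 genes was 0.738 in Mef2c-deficient arrays and 0.255 in control arrays, against 0.515 and 0.305 for all genes. The SD was larger in Mef2c-deficient arrays in 40 of 46 genes, and in 71.7% of all genes.

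**Figure D5:**
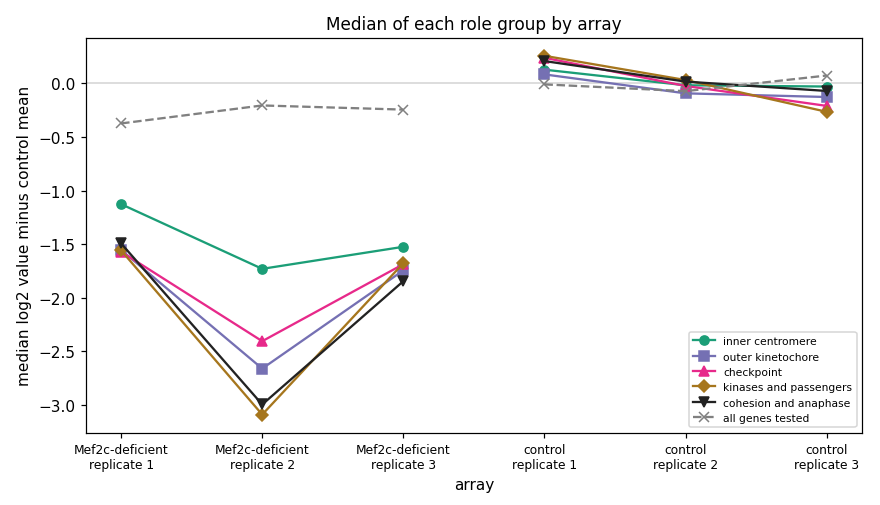
Median of log2 value minus the control mean of the same gene (y axis) for each role group and for all genes tested (grey dashed), in 3 Mef2c-deficient arrays and 3 control arrays (x axis); lines only join arrays of a group. Mef2c-deficient replicate 2 is lowest for each role group, with kinases and passengers at -3.09 there, while all genes lie at -0.21.

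The deepest values in replicate 2 came from the kinases and passengers (-3.09) and from cohesion and anaphase (-2.99), and the inner centromere was less extreme there at -1.73. Replicates 2 and 3 parted most in Cenpk, which was 3.18 higher in replicate 3, followed by Cenpi (2.83), Nuf2 (2.79) and Ttk (2.70). Cenpt went the other way by -2.77. Genes of the same role therefore stood at opposite ends of this comparison, which rests on single arrays and carries no test.

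Leaving out a single array changed which genes passed the adjusted threshold. Without Mef2c-deficient replicate 3, 9 of the 46 genes passed in limma (Cenph, Spc25, Nsl1, Ska1, Ska2, Cenpf, Zwilch, Nek2 and Sgo1), with 154 genes lower in all (1.37%). Without Mef2c-deficient replicate 1, Cenpf, Zwilch and Bub1 passed, with 12 genes lower in all (0.106%). Leaving out any 1 of the 4 other arrays gave 0. Without Mef2c-deficient replicate 2 the differences of Cenpi, Cenpk, Cenpm, Cenpq, Nuf2, Mad2l1, Ttk, Birc5 and Cdc20 shrank by more than 1.5 times. In that fit 35 of 46 genes had a lower mean with p under 0.05 before adjustment, against 21.7% of all genes. With limma's array weights, estimated from the arrays themselves, 38 of the 46 passed as lower, against 8.88% of all genes, and the 8 that did not were Cenpb, Oip5, Cenpq, Cenpk, Cenpm, Cenpt, Zwint and Pttg1. The weights ran between 0.248 for Mef2c-deficient replicate 3 and 7.73 for control replicate 1.

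Further genes of mitosis were read beside the list, against the background of 20.9% of all genes called lower before adjustment. Of 15 further kinetochore genes tested all 15 had lower means, 10 had an unadjusted p under 0.05, and the median was -1.38. The median was -1.87 for 22 genes of spindle motors and assembly, all with lower means and 18 with an unadjusted p under 0.05. Of 15 mitotic cyclins and regulators 13 had lower means and 10 an unadjusted p under 0.05, with a median of -1.39. Another 15 genes encode the anaphase-promoting complex, the ligase that CDC20 activates, or its E2 enzymes and regulators. All 15 had lower means, but 4 of 15 (26.7%) had an unadjusted p under 0.05, near the background. The median of the 15 was -0.74. Trip13, the ATPase that takes apart the mitotic checkpoint complex, was at 9.26, 9.11 and 9.75 in Mef2c-deficient arrays, against 11.86, 11.29 and 11.08 in control arrays (difference -2.03 ± 0.33). Kif2c, a kinesin that disassembles microtubules at kinetochores, had a difference of -2.84 ± 0.59, and Haspin, the histone H3 kinase that draws Aurora B to the centromere, one of -2.82 ± 0.58. Among the spindle genes the smallest p belonged to Kif22 (-2.27) and Ckap2 (-2.44), and Cep55, needed for the final cut between daughter cells, had a difference of -2.97 ± 0.46.

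Markers of the sorted cells and of other cell types were read in the same arrays. Tested were 12 of 14 listed pre-B, 12 of 15 dendritic cell, 8 of 9 neutrophil and 5 of 9 monocyte markers. So were 4 of 10 T and NK cell, 4 of 9 erythroid and 7 of 9 mature B markers. The filter on low values took the mean of all arrays, so a marker low in control arrays could pass on its Mef2c-deficient level. Tlr7, Cd14 and Klf1 had control means of 7.14, 7.18 and 6.90, under the limit of 7.26, and Mef2c-deficient means of 9.51, 9.16 and 7.71. Of 12 pre-B markers tested, 10 had lower means, with a median of -0.89. At an unadjusted p under 0.05, 4 (33.3%) were lower, against 20.9% of all genes. Summed log2 levels of the 12 were 20.40 to 20.92 in Mef2c-deficient arrays and 20.95 to 21.17 in control arrays. Markers of plasmacytoid dendritic cells, which can carry B220, had higher means in 11 of 12 (summed levels 19.48 to 20.66, against 18.86 to 19.80 in control arrays). Of these, 5 were higher at an unadjusted p under 0.05, as were 600 of all 11271 genes tested. All 8 neutrophil markers had higher means, 0 of them with an unadjusted p under 0.05 (summed levels 15.49 to 20.30, against 15.06 to 17.45 in control arrays), and their median lay below the control mean in Mef2c-deficient replicate 2, at -1.23. Monocyte markers summed to 11.22 to 17.14 in Mef2c-deficient arrays and 12.29 to 14.31 in control arrays, with 0 of 5 at an unadjusted p under 0.05. All 4 T and NK cell markers tested had higher means, 2 of them with an unadjusted p under 0.05, again against 600 of all 11271 genes. Their differences ran between 0.06 and 2.998 (Cd4, ± 0.93), with a median of 0.96. Of 4 erythroid markers 3 had higher means, with a median of 0.54, and Tfrc, the brightest, had a difference of -0.999 ± 0.59. Of 7 mature B markers 4 had lower means, with a median difference of -0.73. At an unadjusted p under 0.05, 1 was lower and 1 was higher, against 20.9% and 600 of all 11271 genes. Their summed levels, to which bright genes such as Ms4a1 (difference 1.56) add most, were 16.74 to 18.33 in Mef2c-deficient arrays and 16.23 to 16.77 in control arrays. The dendritic cell and neutrophil markers were highest in Mef2c-deficient replicate 3, with medians of 3.37 and 4.69 above the control mean. Without that array the median of the 46 kinetochore and checkpoint genes was -2.05. Of the 46, 40 then had a lower mean with p under 0.05 in limma before adjustment, against 23.7% of all genes. Leaving it out did not remove the dendritic cell signal, whose medians in Mef2c-deficient replicates 1 and 2 were 0.54 and 0.95. Control replicate 3 had 0.70 by the same measure. For neutrophil markers, Mef2c-deficient replicates 1 and 2 had medians of 0.36 and -1.23. The part of other cells in the lower means of the remaining arrays was not tested.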

How the data were processed

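Expression was measured on Affymetrix mouse genome arrays, 3 per group, and that number limits the precision. The table the authors deposited gives intensity on a linear scale after robust multiarray averaging (background adjustment, quantile normalization and summary per probe set), for 23913 probe sets. No source read here states tool versions. Each value was turned into log2 without an offset. Names came from the platform annotation, which can be old: 17689 probe sets have a single symbol and were used, while 524 with several, 5699 with none and 25 control sets were left out. RefSeq synonyms linked older symbols to current ones. Probe sets with a mean at or under 7.26, the 40th percentile, were dropped, and each gene was read from its brightest remaining set, which left 11271 genes. Mef2c-deficient and control arrays were then compared by limma 3.58.1 under R 4.3.3, with a linear model holding the genotype alone, moderated variances, two-sided p-values and Benjamini-Hochberg adjustment at 0.05. The code was tested on simulated data.

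Replicate numbers were checked for pairing through deviations from group means. Across genes these correlated at 0.348, 0.226 and 0.373 between arrays sharing a number, and at -0.309 to 0.129 otherwise, so a second model added the number as a replicate block. What the numbers mean is not explained in the labels, and the pairing rests on this check. Members, role groups, further gene lists and marker lists were all picked with earlier results of these data known. Values are given array by array for the 3 most negative differences of each role group and for genes whose groups overlap or whose mean was higher. Cenpt, Cenpq, Cenpa, Ttk, Mad2l1, Incenp and Pttg1 were added after their values were seen. Genes named from a further list are among its 3 of smallest p, except Pmf1, Cenps, Cenpu and Cenpx. These were added after their values were seen. Other filters, scalings, an offset, variance models, array weights, the methods' t-test, probe set rules, the base of the scale and the loss of single arrays were tried as alternatives. Python 3.11.15 searched the promoters.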

Additional observations from a re-analysis of the deposited data

Results flagged for a closer look

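A signal outside the comparisons above also separated the groups. Probe sets for bioB, an Escherichia coli gene whose RNA is spiked in as a check on hybridisation, averaged 17.06, 15.97 and 15.50 in Mef2c-deficient arrays, against 14.46, 14.58 and 14.26 in control arrays. The log2 difference over the 6 probe sets was 1.75 (Mef2c-deficient minus control), with no overlap, and it drew attention because it exceeded the level in the control samples. BioB lay 2.63, 1.54 and 1.07 above the control mean in Mef2c-deficient replicates 1, 2 and 3. The median of the 46 kinetochore and checkpoint genes lay at -1.42, -2.63 and -1.70 in the same arrays. The part of the bioB difference in the lower means of these genes was not tested.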

How the results depend on the processing

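Of the 46 genes, 44 kept the sign of their difference under all 20 alternatives that gave a value. Oip5 turned to 0.17 with quantile normalization, 0.16 with cyclic loess, 0.15 and 0.32 with centring on kept probe sets and on genes tested, and ran between -0.44 and 0.20 with a single array left out, above 0 without control replicate 3 and without Mef2c-deficient replicate 2. Cenpq turned to 0.0577 with cyclic loess. The number past the adjusted threshold was 38 with array weights and 0 to 9 with a single array left out. Medians over the 46 genes were -1.46 with cyclic loess, -1.52 with centring on genes tested, -1.37 on natural log values, and -2.33 to -1.44 with an array left out. The inner centromere median was -1.24 (quantile), -1.14 (loess), -1.31 and -1.14 (centring on kept probe sets and on genes tested) and -1.11 (natural log). The outer kinetochore median was -1.59 (loess), -1.67 (centring on genes tested), -1.48 (natural log) and between -2.42 and -1.59 with an array left out. The checkpoint median was -1.28 (quantile), -1.19 (loess), -1.23 (centring on genes tested), -2.23 (array weights) and -1.17 (natural log), and natural logs gave -1.46 for kinases and -1.49 for cohesion and anaphase, a change that follows from the scale. Without probe sets ending in _s_at, _x_at or _a_at, 30 genes had a value. Of these, 26 had p under 0.05 before adjustment with a lower mean, against 20.5% of all genes. In 27 the groups did not overlap, against 26.2%. The cause of the other changes was not tested. With the replicate block, 41 genes had a lower mean and p under 0.05 before adjustment, against 23.1% of all genes. After adjustment 0 of the 46 passed, so the pairing changed no call at the adjusted threshold. The methods' t-test called 31 lower at an unadjusted p under 0.05, against 16.9% of all genes, and 0 after Benjamini-Hochberg adjustment. Detection calls were not used here, and low levels such as those of Cenpb, and of Ska3 in Mef2c-deficient arrays, are the least certain.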
